A study of Homo sapiens with 2 samples.

Results

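The ribosomal proteins of the cytosol are the protein parts of the 80S ribosome, and their mRNAs were measured here in the RUNX2 knockdown clone cl-sh3 of SKOV3 cells against a mock-transfected control clone. SKOV3 is a human ovarian adenocarcinoma cell line. The genes were taken by their current RefSeq symbol, RPL or RPS with a number and at most 1 suffix letter, together with RPLP0, RPLP1, RPLP2 and RPSA. The arrays held 185 probes for 81 such genes, of 41000 probes and 17240 named genes in all. Of the 81 genes, 49 encode proteins of the large (60S) subunit and 32 encode proteins of the small (40S) subunit.

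Both clones were made by lentiviral transduction with 8 µg/ml polybrene and selected with 0.5 µg/ml puromycin. The cl-sh3 clone carries a short hairpin RNA against RUNX2 in the pLKO.1-puro vector, and the control clone carries the same vector with a scrambled sequence. Each of them is a single clone. Labelled cRNA of both was put on the same Agilent arrays of the human genome, with cl-sh3 in Cy5 and the control in Cy3 in hybridization 1 and with the dyes reversed in hybridization 2. The 2 hybridizations were on 1 slide, and as the labels name no separate extracts they were taken as a dye swap of 1 pair of RNAs and counted as 1 replicate. No replicate check of a difference between the clones is then possible, no p-value is given, and what separates the hybridizations is read as technical error. A difference that came with RUNX2 knockdown and one that came with the choice of clone cannot be told apart.

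Every value below is the log2 ratio of cl-sh3 over control, so that a positive value means more signal from cl-sh3. A gene with several probes is represented by its brightest one unless other probes are mentioned. Of 3 RUNX2 probes, the brightest had log2 ratios of -2.04 and -1.30. The others were much dimmer and near background, with 0.17 and -0.13, and with -0.29 and -0.17 where the control of hybridization 2 was not well above background. The epithelial genes EPCAM, KRT8, KRT18 and KRT19 were well above background in both clones on all their probes, but the flag for this is lenient, since both probes of the endothelial gene VWF carried it too.

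Ribosomal proteins are made in near equal numbers, as each ribosome holds 1 copy of almost all of them. The proteins enter the 2 subunits in the nucleolus, where rRNA is made and folded, and members left over are degraded. Their mRNAs belong to the most abundant of any growing cell, and most of them begin with a cytosine and a run of pyrimidines, the terminal oligopyrimidine (TOP) element, through which mTOR signalling sets their translation. Some members, such as RPL5 and RPL11, also bind MDM2 and stabilise p53 when assembly is disturbed.

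RefSeq promoter windows (GRCh38.p14, 250 bases before to 50 bases after the annotated start) were matched for 64 of the 81 genes, in 79 windows. A TOP start, taken as a C at the annotated start followed by at least 4 pyrimidines, was found in 46 of the 79 member windows (58.2%), against 4.07% of the 35116 windows of all genes. The following stretches run from 15 bases before the start to 15 bases from it onwards. They are a choice of 8 from the 13 genes with the highest and lowest ratios that had a window, shown to put genes higher and lower in cl-sh3 side by side, and the capitals mark the pyrimidine run at the start. The first 4 genes were higher in cl-sh3 in both hybridizations and the other 4 were lower in both.
RPS21, chr20:62387088-62387117, plus strand: ggtgactagctgcttCCTTTCTCTCTCgcg
RPL24, chr3:101686704-101686733, minus strand: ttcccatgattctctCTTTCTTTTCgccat
RPS3A, chr4:151099613-151099642, plus strand: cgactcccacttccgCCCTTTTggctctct
RPL36, chr19:5690280-5690309, plus strand: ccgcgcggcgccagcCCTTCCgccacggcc
RPS18, chr6:33272060-33272089, plus strand: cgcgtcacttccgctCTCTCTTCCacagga
RPS3, chr11:75399503-75399532, plus strand: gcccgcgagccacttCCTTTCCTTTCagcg
RPSA, chr3:39406705-39406734, plus strand: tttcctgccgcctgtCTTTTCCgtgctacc
RPL4, chr15:66504841-66504870, minus strand: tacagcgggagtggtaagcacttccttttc

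Of these 13 genes, 4 of the 6 with the highest and 3 of the 7 with the lowest ratios had a pyrimidine run at the start, and the 5 not printed (RPS29, RPL27, RPL3, RPL10A and RPS7) had none. The run held 12 bases in RPS21, the gene with the highest ratio, and 7 bases in RPSA, the gene with the second lowest. RPL4, with the lowest ratio, had no such run at its annotated start, but its printed stretch holds a run of pyrimidines some bases further on. The call depends on the exact annotated base, so a gene counted as without a run may have one nearby. Other start positions were not tested. Over the genes with a window, the 46 with a TOP start had a median log2 ratio of 0.04, and the 18 without one had a median of 0.08. The core of the RUNX site, TGTGGT on either strand, was present in 17 of the 79 windows (21.5%) and in 13.1% of all windows. The 14 genes with this core had a median log2 ratio of 0.08 and the 50 without it a median of 0.04. Of the other sequences searched on both strands, the ETS core CCGGAAG was in 34.2% of the member windows and 10.3% of all windows, the YY1 core AAGATGGC in 7.59% and 2.89%, and TATAAA in 7.59% and 11.5%. These matches describe the windows and do not show that a factor is bound there.

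All 185 probes and all 81 genes passed the filter on detection, which asked that 1 of the RNAs be well above background in both hybridizations. In 184 of the probes both RNAs were well above background in both. The members made up 4.88% of the brightest 10% of the kept probes and 100 of the 360 probes (27.8%) in the brightest 1%. The scanner read 172 of the 185 probes (93.0%) at its lower detector setting in at least 1 of the 4 readings. This held for 6.30% of all kept probes and for 63.0% of the brightest 10% of them. No spot was saturated.

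After loess normalization, the ribosomal protein genes lay on both sides of 0. A loess curve draws the median of bright probes towards 0, and this balance changed with median centring, as given below. It remained when the ribosomal protein spots had no weight in the curve, a setting chosen after the values were seen. The median was then 0.05, with 20 genes higher and 17 lower in both hybridizations. Other probes of like brightness still shape that curve, so this setting cannot tell what loess does to the balance. In the main setting the median log2 ratio of the members was 0.04. The median was 0.01 over all 16153 kept genes and 0.00 over the brightest 10% of the probes. The medians of the single hybridizations had opposite signs, 0.21 in hybridization 1 and -0.11 in hybridization 2. Of the 81 genes, 25 (30.9%) were higher in cl-sh3 in both hybridizations, 19 (23.5%) were lower in both, and 37 changed sign with the dyes. Over all kept genes the percentages were 30.9% and 28.4%. With the probes of a gene averaged, 33.3% of the members were higher and 32.1% lower, against 31.3% and 29.7% of all genes. With the software's own log ratio, 42.0% of the members were higher and 27.2% lower, against 35.4% and 29.6%. The share of members lower in both was thus below that of all genes or above it depending on how probes were combined. With median centring in place of loess, the median of the group was 0.27, that of the brightest 10% of the probes 0.13 and that of all genes 0.05. In that setting 23 members (28.4%) were higher and 2 (2.5%) lower in both, against 36.2% and 25.1% of all genes. Of the members with 1 sign in both hybridizations 92.0% were higher, but most members changed sign with the dyes. The 2 lower ones were then RPL4 and RPL39L.

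**Figure D1:**
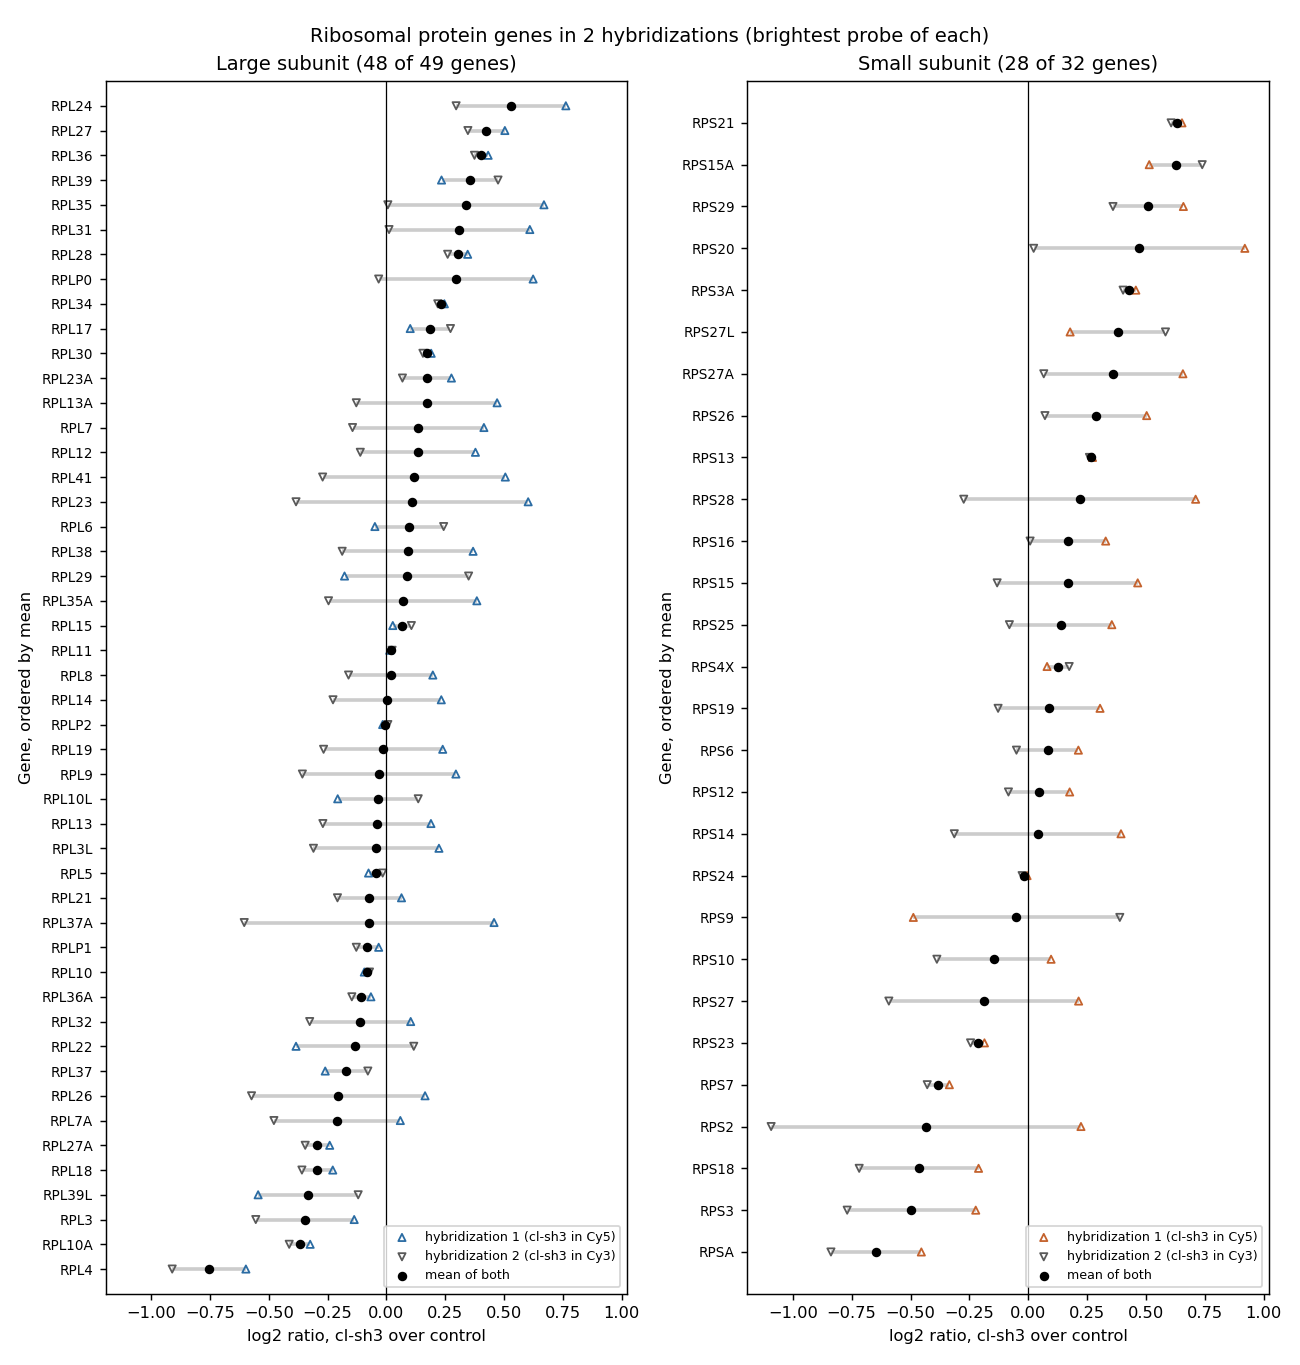
Log2 ratio of cl-sh3 over control (x axis) for 76 of the 81 ribosomal protein genes (y axis, ordered by mean), with the large subunit on the left and the small subunit on the right. Triangles are the 2 hybridizations, black points their mean and grey bars the span between them. The means run from -0.75 (RPL4) to 0.53 (RPL24) in the large subunit and from -0.65 (RPSA) to 0.63 (RPS21) in the small one, and many bars cross 0.

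The span between the hybridizations was wide for the brightest probes of these genes. It had a median of 0.41 on the log2 scale, against 0.23 over all kept genes. Over all 185 member probes the median span was 0.29, against 0.22 over all kept probes. With the probes of a gene averaged, the median span of the members was 0.235. The dye part of the ratio, the mean of the log2 ratios of Cy5 over Cy3 in both hybridizations, had a median of 0.15 for the members and -0.03 for all genes. It was above 0, which means brighter in Cy5 whichever clone carried it, for 62 of the 81 members (76.5%) and for 43.8% of all kept genes. Over all member probes the dye part had a median of 0.07 and was above 0 for 63.2%, beside -0.02 and 45.1% of all kept probes. With the probes of a gene averaged, its median was 0.08 for the members, and it was above 0 for 76.5% of them. RPS2 had the widest span, with 0.22 in hybridization 1 and -1.09 in hybridization 2. RPL37A (0.46 and -0.60) and RPL23 (0.60 and -0.38) changed sign in the same way. The part of the dyes and of the detector setting in the ratios of single genes was not tested.

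No member probe was at least 2-fold higher or at least 2-fold lower in both hybridizations, the rule the study used for its arrays. Among all 36060 kept probes with both ratios, 0.122% were 2-fold higher and 0.394% were 2-fold lower in both. The nearest member was the dimmest RPL22 probe, with -1.29 and -0.997, the second of which was just short of 2-fold. A weaker rule, a log2 ratio of at least 0.32 in size in both hybridizations, was met by 14 probes of 9 genes that were higher in cl-sh3 (7.57% of the member probes, 4.71% of all probes) and by 15 probes of 8 genes that were lower (8.11% of the member probes, 6.95% of all probes). In the brightest 10% of the probes, to which 176 of the member probes belong, the same rule was met by 11.3% and 13.3%. Counted by the brightest probe, 6 of the 81 genes were higher by this rule (7.41%, against 5.42% of all genes) and 4 were lower (4.94%, against 7.67%).

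**Figure D2:**
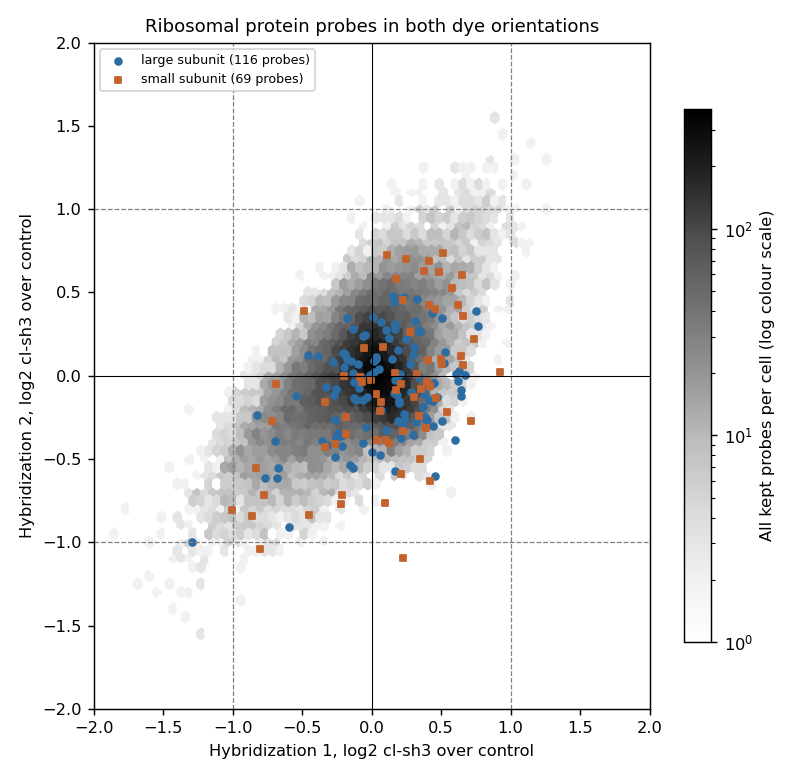
Log2 ratio of cl-sh3 over control in hybridization 1 (x axis) and in hybridization 2 (y axis) for the 185 ribosomal protein probes, drawn as blue circles (large subunit) and orange squares (small subunit) over all kept probes, whose number per cell is given in grey on a log colour scale. Dashed lines mark 2-fold, and no member lies beyond both of them in the same direction.

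Among the small subunit genes, RPS21 had the highest ratio, with 0.65 and 0.61 in hybridizations 1 and 2. RPS21 is a small protein on the solvent side of the 40S subunit. RPS15A followed with 0.51 and 0.74, and its second probe gave 0.49 and 0.62. RPS29, a zinc-binding protein of the 40S head, had 0.66 and 0.36 on its brighter probe and 0.73 and 0.22 on the other. These 3 genes were higher in cl-sh3 on every probe and in both dye orientations. RPS20 had a mean of 0.47, but its values were 0.92 and 0.02, so that hardly any difference was left when cl-sh3 carried Cy3.

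RPS3A is part of the 40S platform. Its 6 probes had means between 0.42 and 0.55, with 0.11 to 0.46 in hybridization 1 and 0.40 to 0.73 in hybridization 2. All 6 were higher in both hybridizations. RPS27A, which is translated as a fusion with ubiquitin and gives both a ribosomal protein and free ubiquitin, had 0.66 and 0.07 on the brighter probe and 0.64 and 0.12 on the other. RPS13 had means of 0.25 to 0.30 over 3 probes, all of them higher in both hybridizations.

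RPSA had the lowest ratio of the small subunit. It is the 40S protein that was also described as the laminin receptor precursor at the cell surface. Its 5 probes gave log2 ratios of -1.005 and -0.81, -0.86 and -0.84, -0.80 and -1.04, -0.78 and -0.72, and -0.45 and -0.84. All of them were lower in cl-sh3 in both hybridizations, and the brightest one, the last, stood closest to 0. The mean of the brightest probe was -0.65, or 1.57-fold lower, and the mean over all 5 probes was -0.81.

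RPS3, which lines the mRNA entry channel and also takes part in DNA repair, had -0.22 and -0.77 on its brighter probe and -0.72 and -0.27 on the other. Both probes had a mean of -0.50, with the larger difference in opposite hybridizations. RPS7, which can also bind MDM2, was lower in both hybridizations on all 3 probes, with means of -0.34, -0.38 and -0.70. RPS18, in the head of the 40S subunit, had 1 probe with -0.21 and -0.72. For RPS2, near the entry channel, the 3 probes had means between -0.43 and -0.34, but only 1 of them was lower in both hybridizations.

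In the large subunit, RPL4 had the lowest ratio of all 81 genes. RPL4 reaches with a long loop into the exit tunnel of the nascent chain. Its single probe gave -0.60 and -0.91, a mean of -0.75 or 1.69-fold lower in cl-sh3. RPL10A, part of the mobile L1 stalk, had -0.32 and -0.41, and its second probe -0.16 and -0.54. RPL3, next to the peptidyl transferase centre, was lower in both hybridizations on all 3 probes, with means of -0.54, -0.35 and -0.31. RPL18 and RPL27A were lower in both hybridizations on both of their probes, with means of -0.38 and -0.29 for RPL18 and of -0.29 and -0.18 for RPL27A.

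The large subunit genes with the highest ratios were RPL24, RPL27, RPL36 and RPL39. RPL24, which forms a bridge to the 40S subunit, had 0.76 and 0.30 on the brighter probe and 0.33 and 0.46 on the other. RPL27 had 0.50 and 0.35, and RPL36 had 0.43 and 0.37, each from 1 probe. RPL39, a very small protein of the exit tunnel, had 0.23 and 0.47 on the brighter probe and 0.75 and 0.39 on the other. All 4 genes were higher in both hybridizations on every probe. RPL17, beside the exit of the tunnel, was also higher in both on its 3 probes, with means of 0.19 to 0.30.

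The 16 genes with the 8 highest and the 8 lowest means kept the direction of their mean under the 11 alternatives that used both hybridizations and kept the spots read at the lower detector setting. These genes were picked by the same means, and several alternatives could hardly change their values. The scaling of brightness between arrays leaves the ratios as they are, and the detection settings kept the brightest probe of every member. The deposited table repeats the software's log ratio. With median centring all 16 means were higher than with loess, for example RPS21 to 0.86, RPSA to -0.42 and RPL4 to -0.56.

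The stalk proteins, which recruit translation factors to the large subunit, included RPLP0, the base of the stalk and a common reference gene in qPCR. RPLP0 had 0.62 and -0.03 on its brightest probe, with means of 0.17 to 0.30 over 3 probes, and none of these probes was higher in both hybridizations. RPLP1 had -0.03 and -0.13, and RPLP2 had -0.02 and 0.01. The means of RPLP1 and RPLP2 were thus within 0.1 of 0, and both turned to positive values with median centring, 0.19 and 0.26.

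The subunits differed little as groups. The median log2 ratio was 0.02 for the 49 large subunit genes, with 14 higher and 11 lower in both hybridizations, and 0.06 for the 32 small subunit genes, with 11 higher and 8 lower. The medians differed by 0.05, while the median span between the hybridizations was 0.36 in the large and 0.42 in the small subunit.

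A different order was visible within each subunit. Ribosomal proteins were numbered by their position on gels, so that low numbers tend to belong to large proteins and high numbers to small ones. After the values were seen, the ratios were set against the number in the name, leaving out RPSA, the stalk proteins and the paralogues with suffix L. Over 43 large subunit genes Spearman's rho was 0.36, and over 30 small subunit genes it was 0.43. In the single hybridizations rho was 0.38 and 0.24 for the large subunit, and 0.48 and 0.22 for the small one. All genes share the same 2 hybridizations, and these correlations are a description across genes without a test.

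Among large subunit genes numbered 3 to 10, 5 of 10 were lower and 0 were higher in both hybridizations, with a median of -0.06. Among those numbered 21 to 41, 3 of 23 were lower and 10 were higher, with a median of 0.11. Over all kept genes 28.4% were lower and 30.9% higher in both hybridizations, and the bins are small beside such shares. The small subunit genes numbered 2 to 10 had a median of -0.13, those numbered 11 to 20 a median of 0.09 and those numbered 21 to 29 a median of 0.22. The contrast in counts was weaker there, with 3 lower and 2 higher in both among the lowest numbers, 2 and 4 in the middle, and 2 and 4 among the highest, and the lowest numbers had a median of 0.09 in hybridization 1. RPS3A (0.43) among the low numbers, RPS18 (-0.46) among the middle ones, and RPS23 (-0.22) and RPL27A (-0.29) among the high ones stood apart from this order. The lengths of the transcripts were not analysed here.

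**Figure D3:**
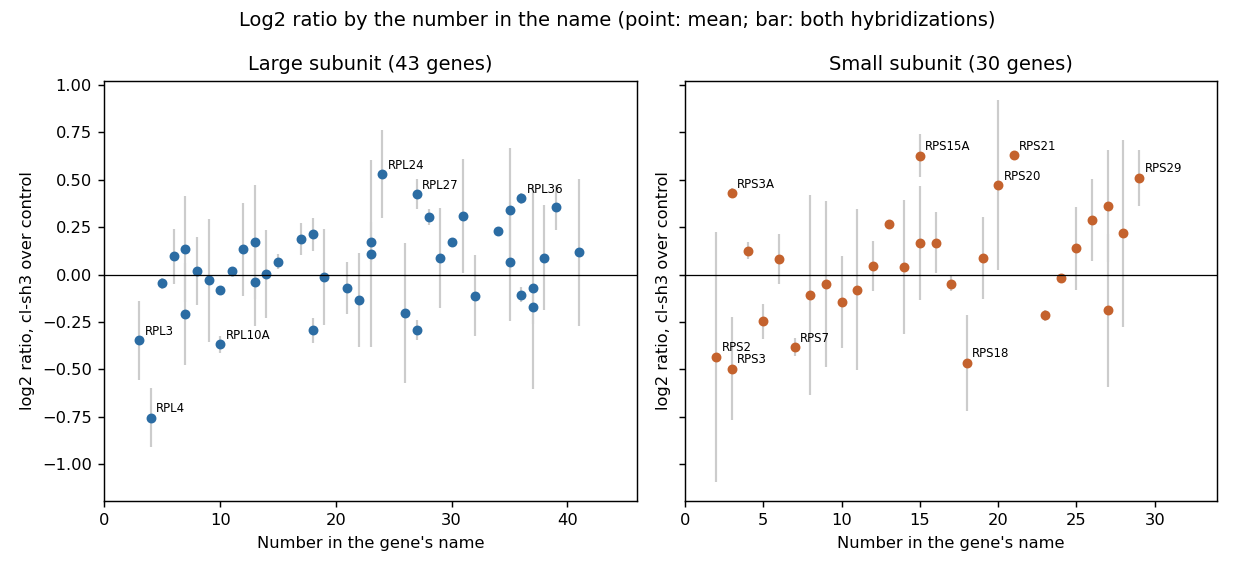
Log2 ratio of cl-sh3 over control (y axis) against the number in the gene's name (x axis) for 43 large and 30 small subunit genes. Points are means and grey bars span both hybridizations. Low-numbered genes such as RPL4, RPL3, RPS2 and RPS3 lie below 0 and high-numbered ones such as RPL36, RPS21 and RPS29 above it, with many exceptions and rho of 0.36 and 0.43.

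Most probes of one gene gave similar values. For 53 genes with at least 2 probes, the range of the mean log2 ratios over the probes of a gene had a median of 0.12, and 39 of these genes had a range under 0.25. All probes were lower in both hybridizations for 10 genes and higher in both for 8 genes. These ranges and counts were not made for the other genes of the arrays, so no background share stands beside them. RPL21 had the most probes, 10, with means from -0.20 to 0.07.

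In 3 genes the range was over 0.5. RPL22, which is dispensable for the ribosome in many cells and is often mutated in carcinomas, had probes at -1.29 and -0.997, at 0.01 and 0.35, and at -0.38 and 0.12. One probe was thus lower and another higher in both hybridizations, and the brightest probe changed sign. RPL31 had its dimmest probe at -0.83 and -0.23 and the others at 0.53 and 0.14 and at 0.61 and 0.01. RPL15 had a dim probe at -0.77 and -0.61 and a bright one at 0.03 and 0.11. In all 3 genes the lowest value came from the dimmest probe, and which transcripts these probes detect was not tested.

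Of the other genes with the widest ranges, RPS26 had means of 0.29 to 0.55 over 3 probes, all of them higher in both hybridizations, and 0.06 on a dim probe on which the control of hybridization 2 was not well above background. RPL7A had means of -0.65 to -0.21 over 4 probes, 3 of them lower in both, while its brightest probe had 0.06 and -0.48. RPS7 (means of -0.70 to -0.34) was lower on every probe.

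**Figure D4:**
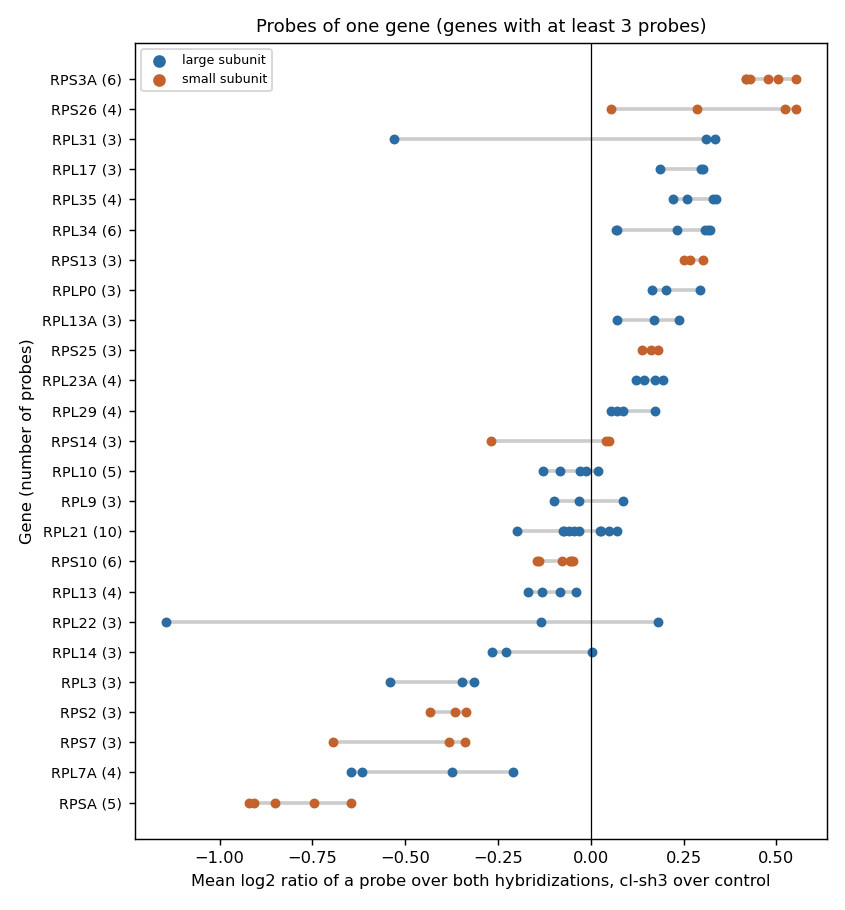
Mean log2 ratio over both hybridizations (x axis) of each probe of the ribosomal protein genes with at least 3 probes (y axis, number of probes in parentheses), in blue for the large and orange for the small subunit. The 5 RPSA probes all lie below -0.6 and the 6 RPS3A probes all above 0.4, while RPL22, RPL31 and RPL15 are the genes with ranges over 0.5, of which RPL15 has too few probes to be drawn.

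RPL5 and RPL11 form a particle with 5S rRNA that binds MDM2. RPL11 had 0.01 and 0.02. RPL5 had -0.08 and -0.02 on its brighter probe, and -0.22 and -0.42 on the other. With median centring the means of the brighter probes were 0.27 for RPL11 and 0.17 for RPL5, and with the software's log ratio that of RPL11 was -0.02. A list of 9 genes mutated in Diamond-Blackfan anaemia, a failure of red cell production, had a median of -0.02. The list is a choice and does not hold every gene of this disease, so the median describes these 9 only. RPS26 and RPL11 were higher in both hybridizations, RPS24, RPL5 and RPS7 were among those lower in both, and RPS19, RPL35A and RPS10 changed sign. RPS7 had the lowest mean (-0.38) and RPS26 the highest (0.29). The median of this list was 0.21 with median centring.

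Several members have a paralogue of restricted or alternative use. RPL39 was higher in both hybridizations (mean 0.35), and RPL39L, known from testis and from tumours, was lower in both with -0.54 and -0.12. RPS27 had 0.21 and -0.59, and RPS27L, a p53 target, had 0.18 and 0.58. RPL22L1, the paralogue of RPL22, had -0.62 and -0.34. RPL36A had -0.07 and -0.15 on its brighter probe and -0.18 and 0.10 on the other, whereas RPL36AL had 0.35 and 0.22.

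RPL3 was lower in both hybridizations, and RPL3L, a gene of skeletal muscle and heart, had 0.22 and -0.31. RPL10 had -0.09 and -0.07, and its intronless copy RPL10L had -0.21 and 0.14. Of the 5 RPL10 probes, 2 were lower and 0 higher in both hybridizations. RPL26 had 0.16 and -0.57 on its brighter probe and -0.06 and -0.41 on the other. RPL26L1 had -0.001 and 0.40 on its brightest probe. Its other probes, of similar brightness, had 0.08 and -0.13, and 0.14 and -0.21. RPS4X had 0.08 and 0.17, and the probe of its counterpart RPS4Y1 was near background, with the control of hybridization 2 not well above it. With median centring the means of RPL3L, RPL10, RPL10L, RPL22, RPL26, RPL36A and RPS27 turned positive. Array probes of such near-identical copies and of processed pseudogenes can detect each other's transcripts, and their cross-hybridization was not tested.

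Genes next to the ribosomal proteins in the pathway were counted for comparison. The 8 ribosomal proteins outside the symbol rule had a median of 0.01, with 1 higher and 3 lower in both hybridizations. Of these, FAU had 0.35 and -0.15, RPL7L1 had -0.45 and -0.01, and RPS4Y2 had -0.06 and -0.10. The 76 mitochondrial ribosomal proteins had a median of 0.04, with 30 (39.5%) higher and 18 (23.7%) lower in both, beside 30.9% and 28.4% of all genes. They ran from MRPS23 (-1.11 and -0.84) and MRPL15 (-0.74 and -0.50) to MRPL13 (0.54 and 0.45) and MRPL34 (0.54 and 0.61).

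Of 45 genes listed as translation factors, 23 (51.1%) were lower and 10 were higher in cl-sh3 in both hybridizations, beside 28.4% and 30.9% of all genes. The list also holds some regulators of translation factors and some other proteins that act at the ribosome. By a log2 ratio of at least 0.32, 8 (17.8%) were lower and 3 (6.67%) were higher, beside 7.67% and 5.42%. Their median was -0.04, and it turned to 0.08 with median centring. EIF5, which activates GTP hydrolysis by eIF2, had -0.95 and -1.33, and EIF2S2, the beta subunit of eIF2, had -0.84 and -0.67. EIF5A had 0.45 and 0.97 and EEF2, the translocation factor, had 0.64 and 0.67. Of 42 genes of ribosome assembly and rRNA synthesis, 17 (40.5%) were lower and 6 (14.3%) were higher in both, with a median of -0.08. TAF1D, a subunit of the RNA polymerase I factor SL1, had -0.73 and -1.06, and BRIX1, needed for 60S assembly, had -0.58 and -0.86. BOP1, also of 60S assembly, had 0.35 and 0.55, and WDR43 had -0.09 and 0.59. No gene of these lists was 2-fold changed in both hybridizations on its brightest probe. Whether the lists differ from the ribosomal proteins was not tested.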

How the data were processed

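RNA of cl-sh3 and of the control clone was compared in what was taken as a technical dye swap on 2-colour arrays. The authors deposited scanner intensity values of each spot, made with Feature Extraction (8.5.1.1 in the submitters' processing notes, 10.5.1.1 in the file headers), and the log10 ratio (Cy5 over Cy3) which it calculates and which the deposited value table repeats to within 0.00245 and 0.005. The median pixel signals used here were not normalized before deposit. The log ratio is the software's own calculation and was not taken as an unnormalized value.

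Median pixel signals were background-corrected (normexp, offset 50, limma 3.58.1, R 4.3.3). Of 45015 spots, 1639 controls and 153 and 144 outliers were left out. Arrays were normalized singly by loess, repeated spots averaged, and log2 ratios given the direction cl-sh3 over control. A loess curve draws the median of each brightness class towards 0, ribosomal proteins included. Probes were kept when at least 50% of their spots were flagged well above background for the same RNA in both hybridizations. Median signals were 451 (Cy3) and 902.5 (Cy5) in hybridization 1, and 507.5 and 684 in hybridization 2. The number of arrays limits the precision.

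Accessions were named through RefSeq (GRCh38.p14), which held 18023 of the 19228 RefSeq accessions; 1 RUNX2 accession was named through the study. No coordinates but those of promoter windows are given, since the array design follows an older build. The genes named are RUNX2, the 8 members with the highest and the 8 with the lowest mean, members past 2-fold, the 6 with the widest range over probes, RPSA, RPS27A and the stalk proteins, the short lists, and the extremes of the longer lists. RPL23, RPL37A, RPS13, RPL17, RPL18, RPL21, RPL27A and RPS23 were named after their values were seen. Some genes are not reported here by name. The members, lists and rules were chosen with earlier results of these data known. In the simulated dye swap of 41000 probes, the 2-fold rule recovered 184 of 200 probes changed 4-fold and called 0 unchanged ones. The simulation had a smooth dye trend, with no dye effect of single genes and no change of detector setting. It therefore does not bear on differences below 2-fold such as those of the members. The alternatives are listed with their effects in the closing section. Python 3.11.15 with numpy 2.4.6, pandas 2.3.3, scipy 1.17.1 and matplotlib 3.10.9 was used.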

Additional observations from a re-analysis of the deposited data

How the results depend on the processing

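The values rest on 1 pair of clones and 1 slide, and ratios of the brightest probes depend most on the normalization. With median centring, the median log2 ratio of the ribosomal protein genes was 0.274, the genes lower in both hybridizations numbered 2, the subunit medians differed by -0.06 (large minus small), and the medians were 0.144 for mitochondrial ribosomal proteins, 0.083 for translation factors (sign turned), -0.008 for ribosome assembly and 0.214 for the Diamond-Blackfan list. With normexp offset 0, 1 ribosomal protein probe, of RPL22, was 2-fold changed. In hybridization 1 alone, 2 probes were 2-fold changed and 80 were past a log2 ratio of 0.32, translation factors had a median of -0.159 and the Diamond-Blackfan list 0.014. In hybridization 2 alone, the numbers were 2 and 70, ribosome assembly had a median of -0.052, and rho with the number in the name was 0.244 (large) and 0.217 (small subunit). With a gene's probes averaged, the subunit difference was -0.069 and rho for the large subunit 0.457. Leaving out spots read at the lower detector setting, an alternative chosen after seeing the data, left 13 probes of 12 genes, with 6 genes lower and 3 higher in both and 3 probes past a log2 ratio of 0.32. Giving the ribosomal protein spots no weight in the loess curve, also chosen later, left a median of 0.053, with 20 genes higher and 17 lower. Of the other settings (no background correction, Aquantile scaling, outlier spots kept, undetected probes kept, both RNAs above background, the software's log ratio and the deposited table), none moved a group's value beyond the spread of the hybridizations or a count beyond 1.5 times. The software's log ratio gave 34 genes higher and 22 lower. The causes were not tested. No paired analysis was possible because the hybridizations were counted as 1 replicate.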
